A study of Mus musculus with 2 samples.

Results

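The genes described here are the 41 mouse protein-coding genes whose symbol is Zbtb followed by a number, out of 21887 protein-coding genes in the gene table of the mm10 assembly. Members were taken by symbol, with no measured value in the rule. Most encode BTB zinc finger proteins, but the rule also takes in Zbtb8os, which is named for its position opposite Zbtb8 genes and encodes archease, a cofactor of tRNA ligation with neither domain. The data are CUT&RUN libraries from the PVN, the paraventricular nucleus of the hypothalamus, of mice labelled wild type (WT), with neurons given as the cell type, with 1 library made with an antibody against Otp and 1 made with IgG. Both libraries are WT, and the labels give neither age, sex nor how many mice were pooled. CUT&RUN tethers a nuclease to an antibody on chromatin, so that DNA near the bound protein is released and sequenced. Otp (Orthopedia) is a homeodomain transcription factor needed for PVN neurons to form, and IgG is an antibody with no chosen target. With 1 library per antibody, no value below has a replicate check and none was tested across samples. A peak list holds no expression values, so the labelled cell type could not be checked against its markers.

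A BTB zinc finger protein pairs with a partner through its BTB domain, which also recruits corepressors such as NCoR and histone deacetylases, and binds DNA through its zinc fingers. Many members repress transcription and fix the identity of a cell lineage. In the brain, Zbtb18 is known for the maturation of cortical neurons, Zbtb20 for the identity of hippocampal pyramidal neurons and Zbtb45 for glial differentiation. Kaiso (Zbtb33), Zbtb4 and Zbtb38 can bind methylated DNA.

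Of the 41 Zbtb genes, 28 (68.3%) had an Otp region, meaning a stretch called as enriched by the authors' peak caller whose highest point, the summit, lay inside the gene or within 1 kb of either end. The share was 37.5% in other genes of the same length decile and 35.3% in all protein-coding genes. At a gene end, 22 of the 41 (53.7%) had a region, against 29.8% of length-matched genes and 27.2% of all genes. The 28 genes held 38 distinct regions, 23 at an end and 15 inside only. None of the 41 had an IgG region, and the IgG share over all protein-coding genes was 0.603%. Taking 3 counts as the limit for a count of 0 allows a share of up to 7.32%. This limit treats genes as independent and covers counting error within this 1 library only. None of the 38 regions overlapped an IgG region, against 1.38% of the 8429 Otp regions at or in any protein-coding gene. These shares describe 1 list each and were not tested.

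Regions at 8 members are shown first as sequence, so that the letters at their summits can be read. They belong to the 15 members with the highest −log10 q and are those with the summit in the upstream window described next, which leaves out stronger regions elsewhere, such as those of Zbtb20, Zbtb7a, Zbtb8os and Zbtb2. Each stretch is the part of the region that lies in the 250 bases upstream of the outermost transcript start in the RefSeq promoter table (GRCm38.p6) and outside the annotated gene, and each contains the summit. Sequences run 5′ to 3′ along the gene's strand. Capitals mark matches, on either strand, to GGGCGG (GC box), CCAAT (NF-Y box), CCGGAA (ETS core), TCCTGCNA (Kaiso site) or TAATTA (homeodomain core pair). The palindromic NRF1 site was searched as well and is in none of the stretches.
Zbtb3 (chr19:8802266-8802488, forward strand): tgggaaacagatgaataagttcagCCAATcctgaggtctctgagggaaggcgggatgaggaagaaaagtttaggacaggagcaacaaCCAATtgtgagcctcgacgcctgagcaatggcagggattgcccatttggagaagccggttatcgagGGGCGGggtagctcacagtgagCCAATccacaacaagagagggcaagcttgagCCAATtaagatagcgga
Zbtb5 (chr4:45012413-45012662, reverse strand): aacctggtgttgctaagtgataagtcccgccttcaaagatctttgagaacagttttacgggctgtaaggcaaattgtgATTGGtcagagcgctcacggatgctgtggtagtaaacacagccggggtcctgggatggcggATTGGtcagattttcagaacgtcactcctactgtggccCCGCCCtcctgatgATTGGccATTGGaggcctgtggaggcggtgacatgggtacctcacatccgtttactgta
Zbtb18 (chr1:177442101-177442224, forward strand): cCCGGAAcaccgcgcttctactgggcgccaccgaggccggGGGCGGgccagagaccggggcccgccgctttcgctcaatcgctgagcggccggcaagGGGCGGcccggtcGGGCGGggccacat
Zbtb37 (chr1:161034878-161035099, reverse strand): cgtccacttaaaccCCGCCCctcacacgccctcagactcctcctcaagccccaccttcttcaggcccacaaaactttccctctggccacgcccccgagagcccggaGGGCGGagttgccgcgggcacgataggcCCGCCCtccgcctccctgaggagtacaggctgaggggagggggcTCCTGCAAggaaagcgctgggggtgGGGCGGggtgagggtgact
Zbtb22 (chr17:33915926-33916073, forward strand): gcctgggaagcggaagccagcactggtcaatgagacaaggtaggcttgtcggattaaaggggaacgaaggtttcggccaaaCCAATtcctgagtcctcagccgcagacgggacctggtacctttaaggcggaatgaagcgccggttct
Zbtb12 (chr17:34894309-34894539, forward strand): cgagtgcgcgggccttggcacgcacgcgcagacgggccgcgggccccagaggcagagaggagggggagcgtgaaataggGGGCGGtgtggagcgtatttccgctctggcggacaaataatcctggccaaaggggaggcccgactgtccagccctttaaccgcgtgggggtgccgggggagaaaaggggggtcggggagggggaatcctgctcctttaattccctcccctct
Zbtb24 (chr10:41450235-41450357, forward strand): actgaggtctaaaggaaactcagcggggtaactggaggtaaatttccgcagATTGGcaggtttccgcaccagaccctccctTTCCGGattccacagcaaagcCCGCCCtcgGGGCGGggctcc
Zbtb43 (chr2:33468582-33468689, reverse strand): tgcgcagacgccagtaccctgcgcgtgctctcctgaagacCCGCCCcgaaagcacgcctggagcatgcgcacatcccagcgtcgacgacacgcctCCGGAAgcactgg

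Across these 8 stretches there was no TAATTA. At Zbtb22 and Zbtb18 the summit lies close to the upstream edge of the stretch. The part of the region beyond that edge is not covered, so the letters on that side of the summit are mostly missing. The stretches of Zbtb3 and Zbtb5 each held 4 CCAAT boxes and 1 GC box, that of Zbtb37 held 4 GC boxes and 1 Kaiso site, and that of Zbtb18 held 3 GC boxes and 1 ETS core. GC content was 52.0% in Zbtb3, 52.4% in Zbtb5 and 77.4% in Zbtb18. A match is a description of the letters and does not show that a factor was bound.

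For contrast, 120 bases upstream of 2 members without a region are given, both from the group that can bind methylated DNA. The stretch of Zbtb38 was placed around the single TAATTA found in any member's 300-base promoter. These 2 picked stretches do not stand for the members without a region. Of the 12 of those with a promoter entry, 7 had a GC box in the promoter.
Zbtb33 (chrX:38189673-38189792, forward strand): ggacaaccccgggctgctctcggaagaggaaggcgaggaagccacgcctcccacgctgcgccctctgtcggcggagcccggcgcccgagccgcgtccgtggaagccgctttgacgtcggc
Zbtb38 (chr9:96731737-96731856, reverse strand): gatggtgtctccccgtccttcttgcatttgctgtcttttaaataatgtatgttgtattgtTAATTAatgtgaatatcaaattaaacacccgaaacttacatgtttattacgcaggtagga

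The Zbtb33 stretch had a GC content of 73.3% and none of the motifs, although the full 300-base promoter of Zbtb33 holds an ETS core. The Zbtb38 stretch had a GC content of 34.2%.

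The 3 members listed for roles in the brain had a region at an end, as did 53.7% of the family and 27.2% of all genes. A group of this size is too small to set against those shares. The list was made with earlier results of these data known and may leave out other members with such roles. Zbtb20 had the strongest region of the family, at chr16:42875337-42875888, with a pileup of 97 tags at the summit (95% Poisson interval 78.7 to 118). The local background was 4.94 tags. Its fold enrichment, which the authors' caller gives over that background, was 16.5, and its −log10 q of 82.7 ranked 116 of the 11379 regions in the Otp list. Tags are reads or fragments, worked out from the deposited values, and the interval covers counting error only. The summit lay 156 bp beyond the lower end of the gene and 229 bp from an end of the non-coding gene 4932412D23Rik. A second region stood beside it with 41 tags (29.4 to 55.6).

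Zbtb20 carried 8 regions, more than any other member, along 758704 bp. The 6 inside the gene had 8 to 16 tags, with a fold enrichment of 5.55 to 9.07, well under the pileup of those at the lower end. The transcript start that the promoter table lists for Zbtb20 lies 371595 bp from that end, and the nearest region to it was 31491 bp downstream of it. Among 2185 other genes of the longest length decile, the median was 1 region and 3 genes had 8 or more. That decile spans 108526 to 2390387 bp, and genes nearer to Zbtb20 in length were not counted apart.

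**Figure D1:**
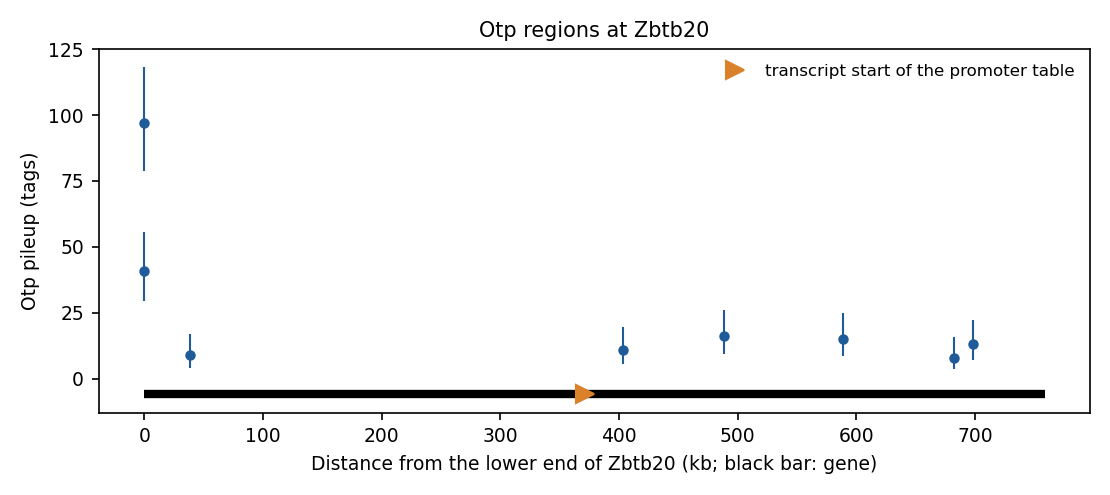
Otp regions at Zbtb20 by distance of the summit from the lower end of the gene (kb) and pileup at the summit (tags), with 95% Poisson intervals; the black bar is the gene and the triangle the transcript start of the promoter table. The regions with 97 and 41 tags sit at the lower end, and the 6 inside the gene have 8 to 16 tags.

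Zbtb18 had 1 region, at chr1:177441827-177442224, at 29 tags (19.4 to 41.6) and 14.2-fold enrichment, its summit 229 bp upstream of the outermost start. Zbtb45 had 1 of 12 tags (6.20 to 21.0) and a fold enrichment of 7.20, with the summit 171 bp upstream. The interval of Zbtb45 overlapped that of Zbtb18 slightly and lay far below that of Zbtb20.

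Of the genes linked to the cell cycle, 3 of 4 had a region, beside 68.3% of the family and 35.3% of all genes. Zbtb5, a repressor of the cell cycle inhibitor gene Cdkn1a, came next in the family after Zbtb20 and Zbtb3, at chr4:45012316-45012839, at 50 tags (37.1 to 65.9) and 12.4-fold enrichment, the summit 122 bp upstream of the start. Zbtb2 had 27 tags (17.8 to 39.3) and a fold enrichment of 9.04, inside the gene and 1283 bp downstream of its start. Zbtb11 had 2 weak regions of 15 and 12 tags, the first 109 bp upstream of its transcript start and the second 862 bp downstream of it. Both lay more than 1 kb inside the annotated gene, whose lower end coincides with an end of Rpl24, so neither counted as an end. Zbtb49 had none.

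Among the 8 genes with roles in blood cell lineages, 6 had a region, beside 68.3% of the whole family and 35.3% of all genes. Zbtb7a, which directs lymphoid and erythroid fate, had 29 tags (19.4 to 41.6) and a fold enrichment of 9.16 at a summit 1211 bp downstream of its start. Zbtb32, a repressor in lymphocytes, had 1 region of 19 tags (11.4 to 29.7) and a fold enrichment of 11.2 inside the gene. Its second region, of 24 tags (15.4 to 35.7), lay 553 bp from its own end but 71 bp from an end of Kmt2b, a histone methyltransferase gene. Zbtb24, mutated in an immunodeficiency syndrome with unstable centromeres, had 17 tags (9.90 to 27.2) at a summit 66 bp upstream of its start. The remaining 3 were weaker, with 16 tags at Zbtb1, 14 tags at Zbtb16 (PLZF) and 11 tags at Zbtb7b (ThPOK, which commits T cells to the CD4 lineage). Zbtb17 (Miz1, a partner of Myc) and Zbtb46, a gene of classical dendritic cells, had none.

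Of the 3 genes tied to telomeres or genome maintenance, Zbtb10 had 11 tags and Zbtb48, a telomere-binding factor, had 12 tags. Zbtb40 had no region. This group is too small to set against the 35.3% of all genes. All 3 genes of the methylated DNA group, Zbtb33, Zbtb4 and Zbtb38, lacked one. The nearest summit beyond the gene lay 116474 bp from Zbtb33, 6889 bp from Zbtb4 and 12757 bp from Zbtb38. A group of 3 genes is too small to set its count of 0 against the share in length-matched genes.

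Members with no role assigned included Zbtb3, whose region at chr19:8802266-8802565 followed that of Zbtb20, with 58 tags (44.0 to 75.0) at 15.7-fold enrichment. Its second region, of 14 tags and a fold enrichment of 3.99, lay 146 bp downstream of a start. Zbtb37 had 31 tags (21.1 to 44.0) at 11.3-fold enrichment in chr1:161034878-161035136. Zbtb22 had 30 tags (20.2 to 42.8) at 10.8-fold in chr17:33915808-33916073, and Zbtb12 had 26 tags (17.0 to 38.1) at 9.66-fold in chr17:34894290-34894539. Zbtb8b had 17 tags and a fold enrichment of 10.3 with the summit 91 bp upstream of its listed start, Zbtb43 had 16 tags and 8.65 likewise 91 bp upstream, and Zbtb7c had 2 regions deep inside the gene, of 18 and 14 tags. The remaining regions had 16 tags at Zbtb44, 13 tags at Zbtb14 and 10 tags at both Zbtb41 and Zbtb9. In the order of pileup, each of the 28 intervals overlapped that of its neighbour, except between Zbtb20 and Zbtb3.

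**Figure D2:**
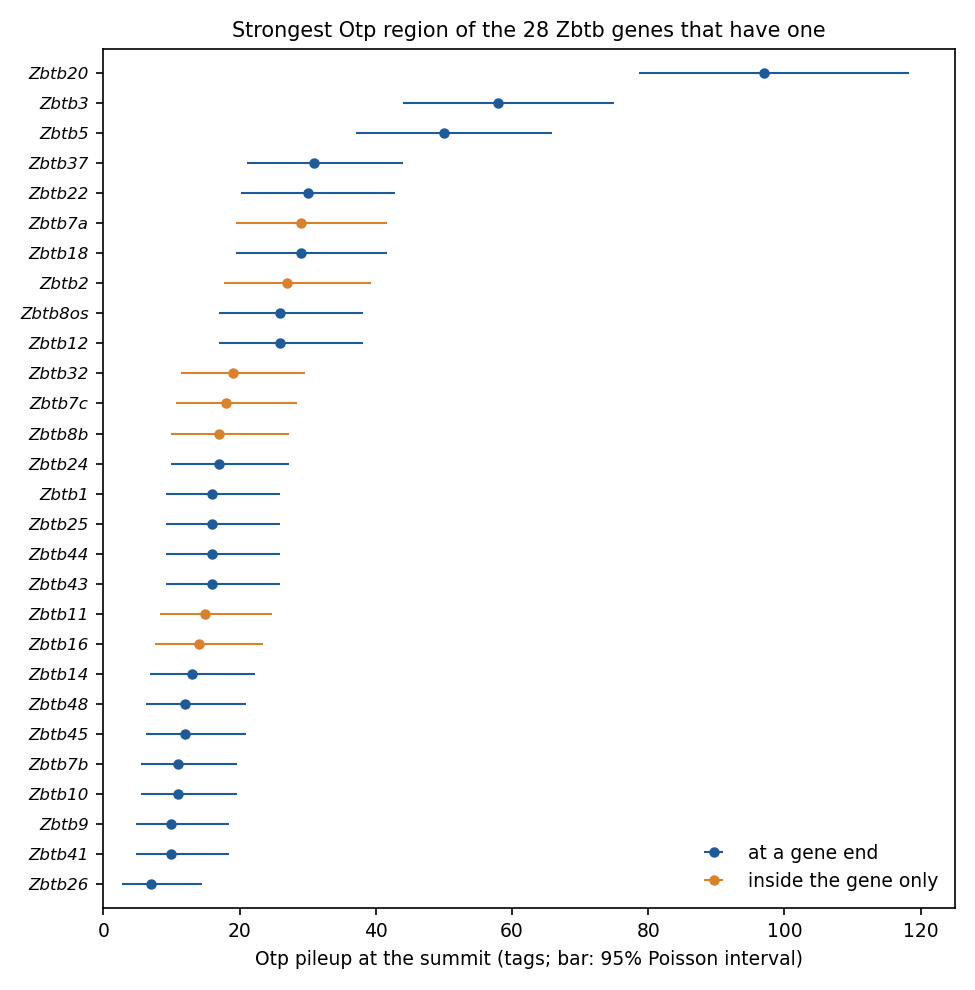
Pileup at the summit (tags) of the region with the highest −log10 q for each of the 28 Zbtb genes that had an Otp region, with 95% Poisson intervals; colours separate genes with that region at an end from those with it inside only. Zbtb20, Zbtb3 and Zbtb5 stand at 97, 58 and 50 tags, and the others lie between 7 and 31 tags.

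Over all 38 regions, the pileup had a median of 16 tags and a range of 7 to 97, against a median of 14 tags over the 8429 regions at or in any protein-coding gene. The median −log10 q was 10.5 at members and 8.18 at genes in general. A region with a −log10 q of at least 10 was present at 16 Zbtb genes (39.0%), against 17.5% of length-matched and 16.3% of all genes. At 20 or more it was 6 Zbtb genes (14.6%), against 6.07% and 5.65%. Having 2 or more regions was found for 5 members (12.2%), against 6.27% of length-matched and 6.44% of all genes.

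The IgG library limits how these regions can be set against a control. Away from enriched stretches the Otp library had 0.512 tags of background, and the IgG library 0.0873 tags. Scaled by that ratio, 12 of the 38 regions would reach 4 tags in the IgG library, the pileup of the weakest IgG region, and 26 would not. The 12 lay at Zbtb20 (both end regions), Zbtb3, Zbtb5, Zbtb18, Zbtb37, Zbtb22, Zbtb7a, Zbtb8os, Zbtb12, Zbtb2 and Zbtb32. At 233 pairs of overlapping regions the IgG pileup was a median of 0.320 times that of Otp, and scaled by this value 27 would reach it. For the 26 or 11 regions that would not, depending on the scaling, a difference from IgG was not detectable at this depth. The same counts over all Otp regions were not computed, so these have no background beside them.

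Some regions were shared with neighbours. Zbtb1 and Zbtb25 lie head to head on chromosome 12 and were counted through 1 region of 16 tags (9.15 to 26.0), with its summit 45 bp downstream of a start of Zbtb25 and 1005 bp upstream of that of Zbtb1. The region of Zbtb8os, with 26 tags, lay 88 bp from its own end and 74 bp from an end of Rbbp4, which encodes a histone-binding protein. The region of Zbtb26, with 7 tags the weakest of the family, lay 122 bp from its own end and 31 bp from an end of Rabgap1. In all, 10 of the 38 regions had their summit nearer to an end of another coding gene than to one of the member itself. Not all of these have a close neighbour. They include regions deep inside Zbtb20, 51906 to 347362 bp from an end of Tigit, and that of Zbtb16, 62988 bp from an end of Gm32280. The same share over all Otp regions was not computed. When a region was given only to the gene with the nearest end, 23 members kept one. The share of other genes that would keep one under this rule was not computed, so the count has no background beside it.

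Of 36 members with a promoter entry, 19 (52.8%) had a region within 1 kb of one of their own starts. The same was true of 29.5% of all genes with an entry, and of 47.3% of other genes matched on length and promoter CpG. Most of these regions lay upstream of the start, at members as at genes in general. Of the 21 regions of members, 18 (85.7%) had the summit upstream, 14 (66.7%) within the first 250 bp, and the median position was −168 bp. The 3 downstream were at Zbtb25, Zbtb3 and Zbtb11. Over the 5042 Otp regions within 1 kb of any listed start, 81.7% were upstream, 72.0% within 250 bp, and the median was −71 bp. Zbtb10, Zbtb16, Zbtb40, Zbtb48 and Zbtb7c have no promoter entry.

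**Figure D3:**
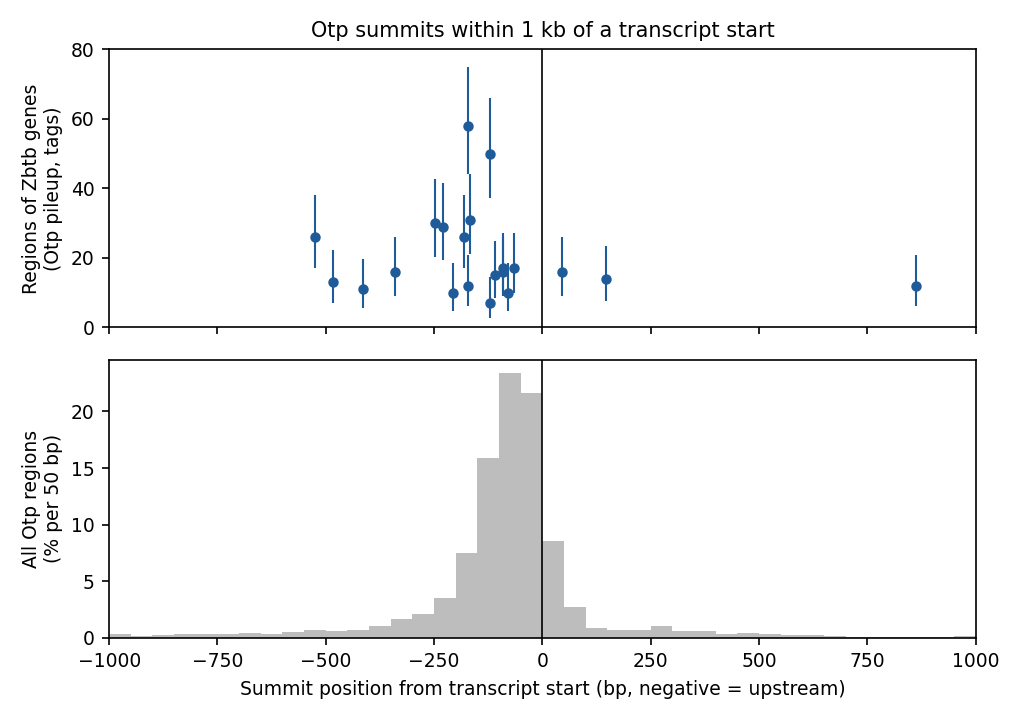
Summit position from a transcript start (bp, negative is upstream). Above, the pileup of the 21 regions of Zbtb genes with 95% Poisson intervals, placed by the nearest start of the member itself. Below, all 5042 Otp regions within 1 kb of any listed start, placed by the nearest one, as percent per 50 bp. Most regions of both sets lie just upstream of the start.

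Zbtb promoters were rich in CpG. The 36 promoters had a median GC content of 65.7% and a median ratio of observed to expected CpG of 0.840, against 56.3% and 0.577 over 17492 protein-coding genes with an entry. By a ratio of at least 0.6 and a GC content of at least 50%, 29 of the 36 (80.6%) were CpG-rich, against 45.8% of all genes. An Otp region was present at 19 of the 29 Zbtb genes with a CpG-rich promoter (65.5%), against 57.5% of other genes with one. It was present at 5 of the 7 without (71.4%), against 17.7% of other genes. Of the 36 Zbtb genes, 24 (66.7%) had a region, against 51.6% of other genes matched on both length and promoter CpG. At an end it was 20 of 36 (55.6%), against 45.5% of those genes. The gap to matched genes was thus smaller than with length alone, where it stood at 66.7% against 37.4% for these 36.

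**Figure D4:**
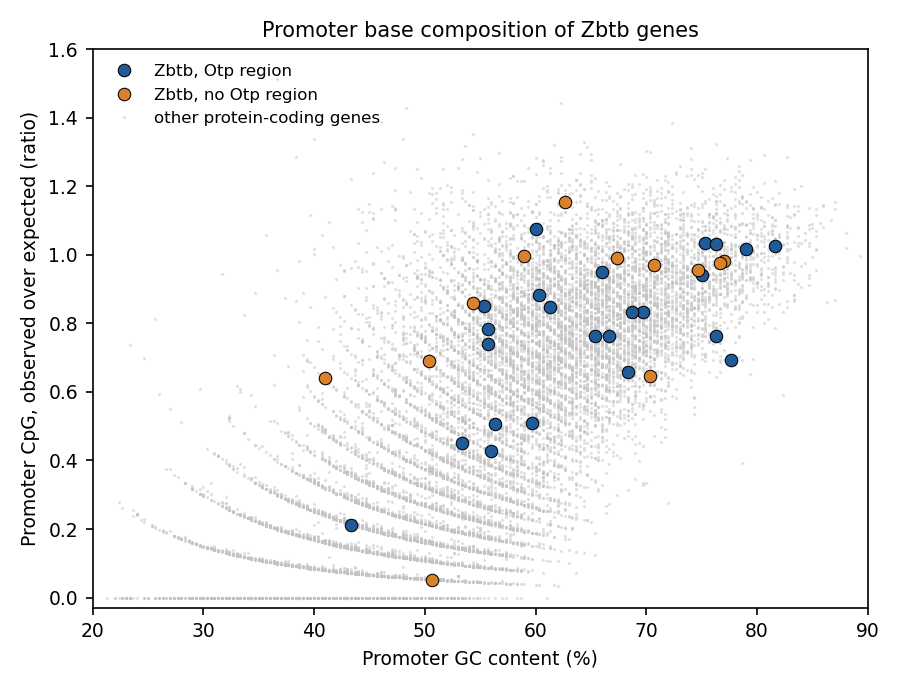
GC content (%) and the ratio of observed to expected CpG in the promoters of Zbtb genes with and without an Otp region, over those of other protein-coding genes (small grey points; the few beyond the axes are not drawn). Zbtb genes with and without a region overlap, and most of both lie in the CpG-rich part.

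Members with and without a region did not separate by composition. The 24 with a region had a median GC content of 65.7% and a CpG ratio of 0.808, and the 12 without had 65.0% and 0.964. A GC box occurred in 18 of 24 promoters with a region and 7 of 12 without (46.3% of all promoters of that length). A CCAAT box occurred in 11 of 24 and 2 of 12 (39.2% of all), and an ETS core in 9 of 24 and 5 of 12 (19.1%). Among all genes with a region, 66.4% had a GC box, 46.4% a CCAAT box and 29.1% an ETS core. Among all genes without one, the shares were 35.0%, 35.1% and 13.5%. TAATTA occurred in 0 of 24 and 1 of 12 (4.69% of all), a Kaiso site in 1 of 24 and 0 of 12 (4.69%), and an NRF1 site in 1 of 24 and 1 of 12 (1.33%). Of the 3 members with 4 or more CCAAT boxes in the promoter, Zbtb3 and Zbtb5 had the strongest regions of the family after Zbtb20, and Zbtb32 had its regions away from its listed starts.

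The members without a region, beside those already named, were Zbtb6, Zbtb8a, Zbtb21, Zbtb34, Zbtb39 and Zbtb42. Closest to the 1 kb limit from outside were Zbtb6, with a summit 2380 bp beyond the gene, and Zbtb46, with one at 3883 bp. Closest from inside was Zbtb10, whose summit lay 655 bp beyond its lower end. For the other members without a region the nearest summit lay 6889 to 376953 bp beyond the gene.

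Another 8 BTB zinc finger genes carry other symbols, and 6 of them had a region (75.0%, against 37.1% of length-matched genes). By tags, Gzf1 was highest with 29 and a fold enrichment of 11.1, followed by Mynn with 18 tags in the stronger of its 2 regions, Zfp131 with 17 tags and Hic1, a tumour suppressor gene, with 16 tags. Bcl6, the germinal centre repressor, had 12 tags, Hic2 had 11 tags, and Bcl6b and Patz1 had none. Of 394 zinc finger genes named Zfp, 201 had a region (51.0%, against 38.4%). Genes with a BTB domain but no zinc finger gave 14 of 37 for the Klhl family (37.8%, against 42.1%) and 10 of 22 for Btbd and Kbtbd (45.5%, against 38.0%). The difference between these families and the Zbtb genes was not tested.

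**Figure D5:**
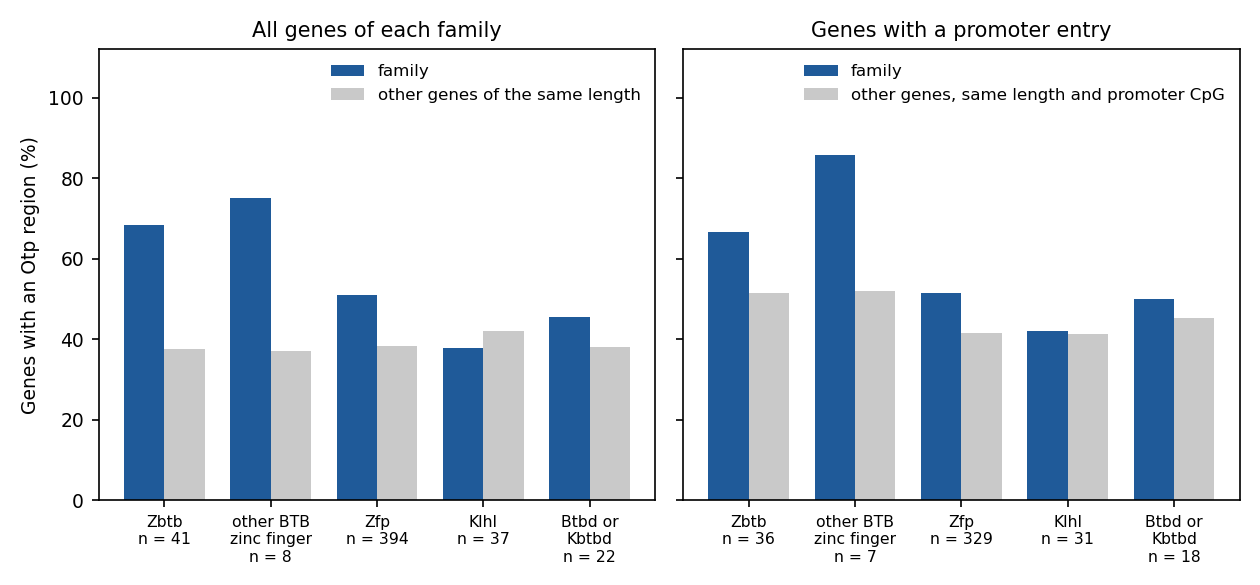
Percent of genes with an Otp region at an end or inside, for Zbtb genes and related families beside other genes of the same length (left) or of the same length and promoter CpG (right). Zbtb genes stand at 68.3% against 37.5% on the left and at 66.7% against 51.6% on the right.

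Genes of corepressors and partners of BTB zinc finger proteins had a region in 13 of 20 cases (65.0%, against 45.8% of length-matched genes). At an end it was 7 of 20 (35.0%, against 30.6%), and for the 15 with a promoter entry it was 9 (60.0%), against 54.5% of genes matched on length and promoter CpG. The strongest were Hdac4, a class II histone deacetylase, with 93 tags and a fold enrichment of 23.0, Sin3a, a corepressor scaffold, with 74 tags and 11.7, Cul3, a ubiquitin ligase scaffold that binds BTB domains, with 29 tags and 12.7, and Ctnnd1, the catenin that binds Kaiso, with 22 tags and 12.3. Ncor1, Bcor and Hdac3 had none. Of 7 genes known as targets of members, Afp alone had a region, of 9 tags inside the gene. Cdkn1a, Cdkn2a, Cdkn2b, Ccnd1, Runx3 and Gata3 had none. The length-matched share was 36.9% and that of all genes 35.3%, and 7 genes are too few to set against these.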

How the data were processed

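Each library has 1 deposited peak list, called per sample. The tools named in the submitters' processing notes are MACS2, Bowtie2, Trimmomatic, SAMtools and Picard, on build mm10. Their versions and settings, and whether a control entered the peak calling, are not given here. The deposited fold enrichment is a ratio over the caller's background. It and the −log10 p and q values were made by the authors and serve to describe and rank regions. Total depth is unknown. The display score was not used.

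Pileups were worked out from the deposited fold and −log10 p, taking MACS2's definitions (pileup plus 1 over background plus 1, and the Poisson tail), as the whole number matching within 0.001 with no other within 0.005. This gave 11182 Otp pileups (98.3%) and 262 IgG pileups (90.0%). The calculation was tested on simulated data. The genome background of a library is the lowest value that at least 3 regions share.

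Genes came from the RefSeq table of GRCm38.p6, the assembly of mm10. The length-matched share is the mean, over members, of the share among non-members of the same length decile (5 by 5 quintiles where promoter CpG was added). Promoter sequences (300 bases, 250 of them upstream) were matched by gene ID for 36 of 41 members. All values were computed with Python 3.11.15, numpy 2.4.6, scipy 1.17.1 and pandas 2.3.3.

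Members with the 15 highest −log10 q, those with 4 or more regions, pairs sharing a region and listed genes without one were named by rule. Members and lists were chosen with earlier results of these data known. Matching on CpG, the 2 scalings to IgG and the choice of printed sequences followed inspection of the data. Alternatives were other thresholds, windows of 500 bp and 5 kb, nearest-gene assignment and other matching.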

Additional observations from a re-analysis of the deposited data

How the results depend on the processing

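Of 44 values under alternatives, 33 stayed close to the first value and 11 moved. Counts were taken as close within 1.5 times, and 4 moved. The length-matched share of 37.5% was held to a 95% exact binomial interval (36.9 to 38.2%), which is narrow, and 7 moved. That interval treats a mean of decile shares as a simple proportion. It served only to label values and does not measure the spread of that share. At a −log10 q of at least 10, 16 Zbtb genes had an Otp region, 12 of them at an end, with 20 regions in all and 2 of the other BTB zinc finger genes, and the length-matched share was 17.5%. That share was 31.8% at a −log10 q of at least 5, where 25 of the 41 Zbtb genes had a region. It was 35.5% at a fold enrichment of at least 5 (26 Zbtb genes), 36.8% within 500 bp (26) and 42.0% within 5 kb (30). With no matching on length it was 35.3%. Matching on length and promoter CpG, added after seeing the data, gave 51.6%. That value is for the 36 members with a promoter entry, of which 24 had a region. No IgG region appeared at a member within 5 kb or under any other setting run. Restricting members by zinc finger patterns in their proteins was not run. Depth limits 26 of the 38 regions when scaled by background, and 11 when scaled by overlapping regions. No paired analysis was possible because the antibodies have 1 library apiece, which also leaves nothing to omit in turn.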

Other observations

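The number of CCAAT boxes in the promoter, seen first at Zbtb3 and Zbtb5, was counted on either strand in all 17492 promoters, a count chosen after the data were seen. The share of genes with an Otp region was 31.7% of 10636 genes with 0 boxes, 35.1% of 4502 with 1, 50.4% of 1617 with 2, 65.9% of 502 with 3 and 81.7% of 235 with 4 or more. Among CpG-rich promoters alone it was 49.4%, 62.8%, 80.1%, 89.0% and 94.1%, and among the others 15.9%, 16.7%, 24.0%, 36.4% and 58.5%. In Zbtb genes a region was present in 13 of 23 with 0 boxes, 7 of 8 with 1, 0 of 1 with 2, 1 of 1 with 3 (Zbtb9) and 3 of 3 with 4 or more (Zbtb3, Zbtb5 and Zbtb32). Genes are not independent replicates, and the library is single. TAATTA, the core pair that homeodomain proteins bind, was in 2.59% of promoters of genes with a region and 5.86% of those without. The 2 sets differ in composition, with 73.3% of promoters CpG-rich in the first and 30.3% in the second. The TAATTA shares were not split by CpG class, and a region may lie anywhere in its gene. Depletion of TAATTA at Otp regions was not tested.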
